A study of Mus musculus with 12 samples.

Results

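BMP4 was added to osteoblastic cells that had first been given TNFa, and the 3 libraries of these TNFa+BMP4 cells were compared with the 3 libraries of cells given TNFa alone. These are 6 of the 12 RNA-seq libraries of the series, chosen by their labels and not by any measured value. All of them come from MC3T3-E1, an established line of bone-forming precursor cells from mouse calvaria, and polyA RNA was sequenced as paired 150 bp reads. Every group, controls included, was first kept in 2.5% serum for 30 min. TNFa+BMP4 cells received TNFa at 10 ng/mL for 30 min and BMP4 at 10 ng/mL for the following 3 h. TNFa cells received TNFa at 10 ng/mL without BMP4. The other 6 libraries are 3 of cells given BMP4 at 10 ng/mL for 3 h and 3 of untreated cells, and they enter the fit and serve to set the effect of BMP4 without TNFa beside its effect with TNFa. Another field of the labels gives 3 h for each factor, so how long TNFa was present is uncertain. The titles of the TNFa libraries also contain an unexplained p65. By its title the study concerns contacts between Smad4 and p65, and protection by BMP from cell death in inflammation. The comparison here asks which inflammatory and death genes were lower, not called or higher once BMP4 was added.

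TNFa binds receptors that release the NF-kB subunits p65 (Rela) and p50 (Nfkb1) from IkB proteins, and NF-kB then switches on chemokines, adhesion molecules, survival genes and its own inhibitors. The same receptors can instead build a complex of Ripk1, Fadd and Casp8 that leads to apoptosis, or a complex of Ripk1, Ripk3 and Mlkl that leads to necroptosis. BMP4 acts through serine/threonine kinase receptors and the transcription factors Smad1, Smad5 and Smad9, which work with Smad4 and switch on the Id genes and the inhibitory Smads. Interferon-stimulated genes are switched on by transcription factors such as Stat2 and Irf9, which act in a complex that binds a paired TTTC element, and by interferon regulatory factors that bind the same kind of element.

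Of the 14 lists of inflammatory and death genes described here, the interferon response had the most members called lower, so promoters of 4 of its members are shown first. The windows run from 250 bases before to 50 bases after the RefSeq start site in the GRCm38.p6 assembly and are printed 5′ to 3′ on the gene's own strand. Capitals mark each match to the motif searched, which is TTTC followed after any 2 bases by a further TTTC, or the same on the other strand, GAAA followed after any 2 bases by GAAA. The search used both strands, and overlapping matches were counted. Ifit3, Gbp2 and Irgm2 are members whose level fell, and Ifitm3 is a member that was not called.
Ifit3, chr19:34583279-34583578, plus strand: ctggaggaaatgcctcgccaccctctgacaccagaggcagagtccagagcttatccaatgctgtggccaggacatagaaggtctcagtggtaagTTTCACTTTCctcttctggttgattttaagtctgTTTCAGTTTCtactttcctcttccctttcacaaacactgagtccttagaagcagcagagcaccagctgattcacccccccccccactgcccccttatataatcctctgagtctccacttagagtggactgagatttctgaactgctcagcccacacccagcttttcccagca
Gbp2, chr3:142620413-142620712, plus strand: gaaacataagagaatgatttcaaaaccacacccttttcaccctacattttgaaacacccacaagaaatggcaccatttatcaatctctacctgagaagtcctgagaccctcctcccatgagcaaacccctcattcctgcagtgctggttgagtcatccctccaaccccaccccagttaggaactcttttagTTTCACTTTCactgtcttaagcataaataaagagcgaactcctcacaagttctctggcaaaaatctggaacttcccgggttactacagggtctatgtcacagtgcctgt
Irgm2, chr11:58214727-58215026, plus strand: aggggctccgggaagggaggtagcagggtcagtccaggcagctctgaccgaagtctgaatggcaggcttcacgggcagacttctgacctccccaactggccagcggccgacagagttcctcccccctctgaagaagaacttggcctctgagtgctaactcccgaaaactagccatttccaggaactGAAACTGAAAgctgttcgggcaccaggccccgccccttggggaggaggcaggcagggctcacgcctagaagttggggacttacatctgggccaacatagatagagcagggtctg
Ifitm3, chr7:141010695-141010994, minus strand: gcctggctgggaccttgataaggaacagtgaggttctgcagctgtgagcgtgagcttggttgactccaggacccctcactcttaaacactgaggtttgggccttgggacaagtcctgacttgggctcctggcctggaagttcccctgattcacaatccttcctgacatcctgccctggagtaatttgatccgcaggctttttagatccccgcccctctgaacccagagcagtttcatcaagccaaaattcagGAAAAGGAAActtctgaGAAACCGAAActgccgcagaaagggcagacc
In Ifit3 the matches begin 156 and 122 bases before the start site, in Gbp2 59 and in Irgm2 64 bases before it. In Ifitm3 both lie downstream of it. Positions were read for these genes only, so whether position differs between lowered and other members was not tested. Of the 20 interferon response genes called lower, 17 had a promoter in the RefSeq table, and 12 of these (70.6%) held the motif on either strand. It was present in 3 of 7 members that were not called and in 0 of 2 that were called higher. Among all tested genes with a promoter it was present in 339 of 9312 (3.64%), and among all those called lower in 33 of 563 (5.86%). It was present in 1079 of all 27025 RefSeq promoters (3.99%). The 5 class I antigen presentation genes called lower that had a promoter held none in this window, and 4 of the 10 that were not called did. A match is a string of letters and not a measured binding site. Interferon-stimulated genes are switched on through this kind of element, so the share of the list against all genes does not bear on BMP4.

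Libraries held 13.7 M to 15.5 M tags, and TNFa+BMP4 replicate 2 held 20.6 M. The labels do not say that replicates came from separate cultures, so p-values measure the spread between these libraries only. Batch 1 holds replicate 1 of every group and batch 2 holds replicates 2 and 3. Values are the deposited log2 levels, and differences are TNFa+BMP4 minus TNFa ± SE from limma with batch in the model and n = 3 libraries per group. Calls required a Benjamini-Hochberg adjusted p under 0.05 over the 11765 genes whose mean level was at least 4. Of these 1373 (11.7%) were called, 643 higher (5.47%) and 730 lower (6.2%), and 1372 had 1 direction across both batches. Without the batch term 66 were called higher and 39 lower. The median difference over all tested genes was 0.0023, and 0 of 10 housekeeping controls were called by limma, with 1 at an unadjusted p under 0.05, against 25.3% of all tested genes. Only 1 of these controls had a negative difference, and their median was 0.06 (0.02 in batch 1 and 0.07 in batch 2). The osteoblast markers Col1a1, Col1a2 and Sparc had mean levels of 17.3, 17.5 and 16.3, whereas Alpl, Bglap, Ibsp and Dmp1 had mean levels of 0.35, -0.03, -1.23 and 1.05, and in all 8 of 16 markers of the labelled cell type were below the minimum. Of the leukocyte markers 8 of 11 were below the minimum, with Adgre1, Tyrobp and Cd3e at 0, and 0 of the other 3 were called. Their summed level was 16.0 to 16.1 in TNFa+BMP4 libraries and 16.0 to 16.2 in TNFa libraries. The adipocyte markers Adipoq, Plin1 and Lpl were at 0. Of the markers of endothelium and muscle 6 of 8 were below the minimum, and Pecam1, an endothelial adhesion molecule, was called higher (0.46 ± 0.08) at a mean level of 4.95. The summed level of that marker list was 8.50 to 8.77 in TNFa+BMP4 libraries and 8.16 to 8.49 in TNFa libraries, and its part in the results was not tested. In bulk RNA fewer cells of one kind and less RNA per cell cannot be told apart. The deposited scale compresses weak genes: regressed on the authors' deposited fold changes, these differences had a slope of 0.289 at mean levels of 4 to 6 and of 0.916 above 10.

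The targets of BMP and Smad signalling come first, to describe the labelled BMP4 treatment in cells that also had TNFa. The list was chosen with earlier results of these data known, so it is not an independent check. Of 24 tested targets 17 rose and 2 fell, and their median difference was 0.58. Id3, an inhibitor of differentiation and a direct Smad target (NM_008321, mm10 chromosome 4, 136143822 to 136145392), had levels of 11.70, 12.21 and 12.27 in TNFa+BMP4 libraries, against 9.23, 10.09 and 10.04 in TNFa libraries. The groups did not overlap, and the difference was 2.27 ± 0.07 (limma adjusted p = 5.65e-15). The transcription factor Atoh8 rose by 2.30 ± 0.17, the repressor Snai1 by 1.91 ± 0.08, Id1 by 1.76 ± 0.08 and Id2 by 1.58 ± 0.06. The feedback inhibitors Smad6 and Smad7, which block BMP receptors, rose by 1.67 ± 0.10 and 1.55 ± 0.11. Smad9, itself a receptor-activated Smad, rose by 1.60 ± 0.11. Pmepa1, a membrane protein that restrains TGF-beta signalling, rose by 1.60 ± 0.14, and the keratin Krt16 by 1.57 ± 0.13. The stress gene Gadd45b completed the 10 largest rises and is described with the survival genes. Smad4, the shared partner Smad, had levels of 10.65, 10.72 and 10.69 in TNFa+BMP4 libraries, against 10.69, 10.76 and 10.76 in TNFa libraries, a difference of -0.05 ± 0.05 that was not called (limma adjusted p = 0.604). Among the 10 largest falls were 3 immune genes, namely Samd9l, an interferon-induced antiviral gene (-0.90 ± 0.10), the complement gene C3 (-0.86 ± 0.15) and Ifit3 (-0.82 ± 0.10). The others were Rasgef1a, a Ras exchange factor (-1.03 ± 0.08), the transcription regulator Trerf1 (-0.90 ± 0.09), the glycosyltransferase Mgat3 (-0.77 ± 0.10), the acetyltransferase Kat2b (-0.76 ± 0.08), the phosphatase Dusp3 (-0.74 ± 0.09), Medag (-0.74 ± 0.07) and Dact2 (-0.74 ± 0.09).

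**Figure D1:**
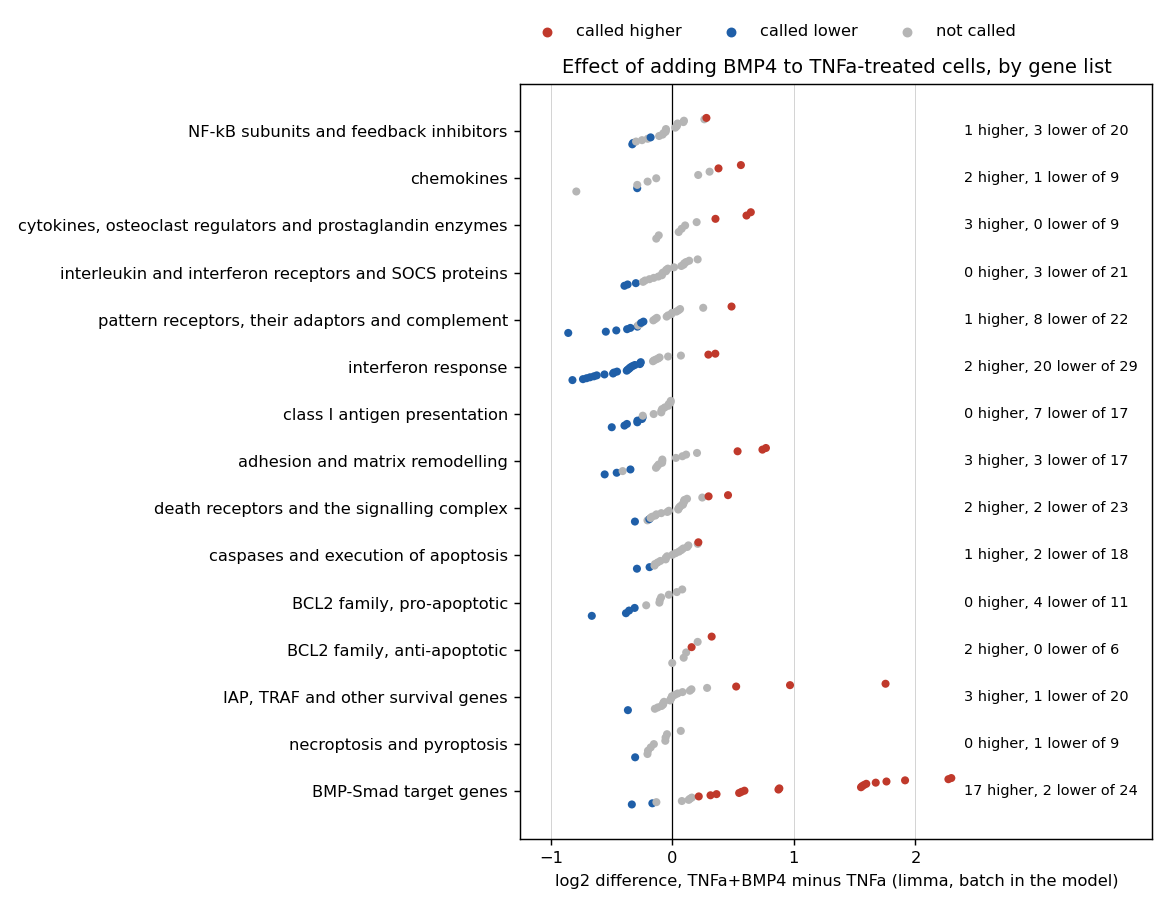
Difference in level between TNFa+BMP4 and TNFa cells (x axis, log2 units, limma with batch in the model) for the tested members of 15 gene lists, 1 point per gene, with called members in colour and counts at the right. The interferon response list lies mostly left of 0 with 20 of 29 members lower, and the BMP-Smad targets lie mostly right of it with 17 of 24 higher.

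The 8 lists of inflammatory genes held 144 tested members, of which 45 (31.25%) fell and 12 rose, with a median difference of -0.11. The count of falls was 30 without TNFa replicate 1, and the count of rises was 6 without TNFa+BMP4 replicate 1. The 6 lists of death genes held 87 tested members, of which 10 fell and 8 rose, with a median of -0.02. Over all tested genes limma called 6.2% lower and 5.47% higher, and these shares also stand beside the count of each list below. A further 67 members of these 14 lists were below the minimum level and are not part of the counts, 22 of them at 0 in every library. Their absence from the tests follows from their level alone. In the authors' deposited table, whose adjusted p called 10.5% of the 11765 tested genes (5.47% higher and 5.07% lower), 2 of the 67 were called, both lower: the antiviral GTPase Mx1, with a fold change of -3.37 (authors' deposited adjusted p = 0.00606), and Gbp6, with a fold change of -1.33 (authors' deposited adjusted p = 0.0121). The plot of differences by gene list shows the spread within each list.

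The interferon response held the most lowered genes of the 14 lists. Of its 29 tested members 20 (68.97%) fell and 2 rose, with a median difference of -0.34, and 13 further members were below the minimum. Ifit3, an antiviral RNA-binding partner (NM_010501, mm10 chromosome 19, 34583529 to 34588982), had levels of 5.90, 5.74 and 5.55 in TNFa+BMP4 libraries, against 7.06, 6.36 and 6.24 in TNFa libraries. Every TNFa+BMP4 library lay below every TNFa library (limma adjusted p = 9.11e-06). Gbp2, a guanylate-binding GTPase (NM_010260, mm10 chromosome 3, 142620663 to 142638008), had levels of 10.40, 10.46 and 10.52 in TNFa+BMP4 libraries, against 11.10, 10.83 and 10.81 in TNFa libraries. These groups did not overlap either, and the difference was -0.46 ± 0.08 (limma adjusted p = 0.00058). Parp14, an ADP-ribosyltransferase, had levels of 8.36, 8.61 and 8.65 in TNFa+BMP4 libraries, against 9.48, 9.24 and 9.11 in TNFa libraries, a difference of -0.74 ± 0.09. Its neighbour on chromosome 16, the ubiquitin ligase Dtx3l, had levels of 8.45, 9.02 and 8.88 in TNFa+BMP4 libraries, against 9.36, 9.59 and 9.52 in TNFa libraries, a difference of -0.71 ± 0.08. Libraries of the 2 groups were apart for both genes, and Parp9, which acts with Dtx3l, fell by 0.38 ± 0.08.

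The immunity-related GTPases Irgm2 and Igtp fell by 0.65 ± 0.10 and 0.62 ± 0.10, and the guanylate-binding proteins Gbp7, Gbp5 and Gbp3 fell by 0.56 ± 0.11, 0.49 ± 0.09 and 0.48 ± 0.11. The antiviral effectors Ifit1 and Ifit2 fell by 0.68 ± 0.16 and 0.35 ± 0.09, the kinase Eif2ak2, a sensor of double-stranded RNA, by 0.33 ± 0.06, and Oasl2 by 0.36 ± 0.11. The transcription factors of the pathway also fell, among them Stat2 by 0.34 ± 0.07, Irf9 by 0.37 ± 0.10 and Irf7 by 0.26 ± 0.09. The ubiquitin-like Isg15 (-0.27 ± 0.09) and the GTPase Irgm1 (-0.26 ± 0.08) were also called, and with Irf7 they lay closest to the threshold. Stat3, which carries signals of the interleukin-6 family, rose by 0.30 ± 0.09 and Irf5 by 0.35 ± 0.11. Not called were Irf1 (-0.15 ± 0.10), an NF-kB-inducible member, Irf2 (-0.16 ± 0.08), Bst2 (-0.13 ± 0.08), Ifitm3 (-0.12 ± 0.05), Trim25 (-0.11 ± 0.06), Ifi35 (-0.04 ± 0.07) and Irf3 (0.07 ± 0.07). In 16 of the 29 members all TNFa+BMP4 libraries lay below all TNFa libraries, and in 1 all lay above. Over all tested genes the groups did not overlap in 15.8%, with 7.81% lower and 8.03% higher. Each of the 20 falls was larger in batch 1 than in batch 2: the median difference of the list was -0.52 in batch 1 and -0.26 in batch 2. Over all 730 genes called lower, 576 had the larger fall in batch 1. The number of members called lower was 13 without TNFa+BMP4 replicate 1, 12 without TNFa replicate 1 and 14 with batch 2 alone. By the authors' deposited adjusted p 17 members were called lower and 1 higher. Isg15, Irf7, Irgm1 and Stat3 were not called there. Over all tested genes that adjusted p called 5.07% lower and 5.47% higher. Among others Isg15, Irf7, Irf9, Oasl2, Irgm1, Ifit2, Ifit1, Gbp3, Stat3 and Irf5 lost their call in at least 1 of the 6 fits that left out a library, with the largest adjusted p, 0.414, for Irgm1 without TNFa+BMP4 replicate 1. The GBP, IFIT and H2 families have closely related copies, and how reads shared between copies were counted is not given in the sources used here.

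The fall did not bring most of these genes to the level of untreated cells. TNFa alone, against untreated cells, raised 27 of the 29 members and lowered 0, where 15.5% of all tested genes were called, 9.16% higher and 6.32% lower. In TNFa+BMP4 cells 23 of the 29 were above untreated cells and 0 below, where 31.2% of all tested genes were called, 16.8% higher and 14.4% lower. These comparisons share libraries with the one between TNFa+BMP4 and TNFa, so the values are only set side by side. Gbp2 stood 2.82 above untreated cells with TNFa+BMP4 and 3.28 above with TNFa. Ifit3 stood 0.20 ± 0.10 above with TNFa+BMP4, which was not called (limma adjusted p = 0.128), and 1.03 above with TNFa. Its margin with TNFa+BMP4 was the narrowest among the genes with a fall over 0.6. Dtx3l stood 0.46 above with TNFa+BMP4 and 1.17 above with TNFa.

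**Figure D2:**
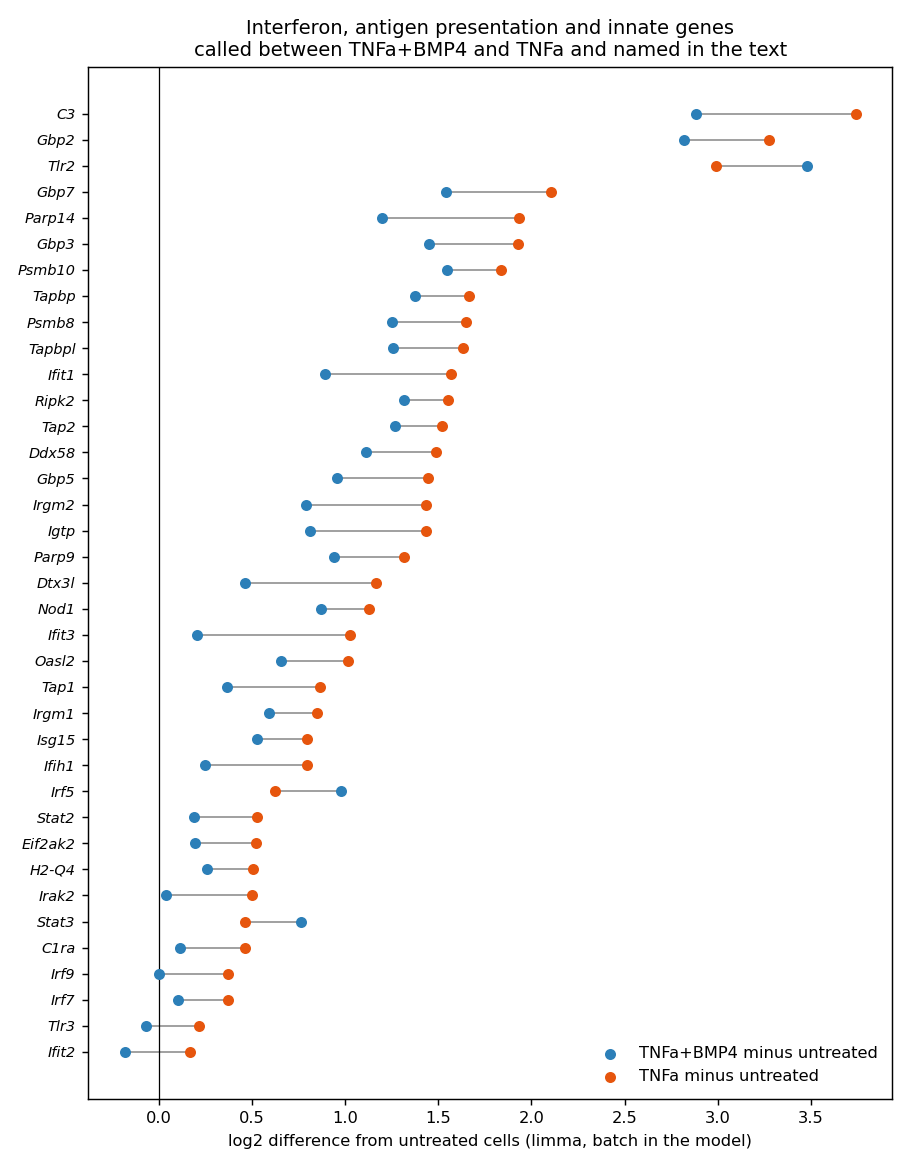
Difference from untreated cells (x axis, log2 units, limma with batch in the model) for the interferon, antigen presentation and innate genes called between TNFa+BMP4 and TNFa cells that are named in the text, with 1 line per gene joining the value for TNFa+BMP4 cells (blue) and that for TNFa cells (orange). Ifit3 stands at 0.20 with TNFa+BMP4 and 1.03 with TNFa, and Tlr2 is among the few genes with the blue point to the right.

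The machinery of class I antigen presentation, which cuts, transports and loads peptides, was lowered in part. All 17 tested members had a negative difference, 7 fell and 0 rose, with a median of -0.15. The peptide transporter Tap1 (NM_013683, mm10 chromosome 17, 34187556 to 34197225) had levels of 8.92, 8.60 and 8.84 in TNFa+BMP4 libraries, against 9.53, 9.20 and 9.12 in TNFa libraries. The groups did not overlap, and the difference was -0.50 ± 0.09 (limma adjusted p = 0.000537). The immunoproteasome subunits Psmb8 and Psmb10 fell by 0.39 ± 0.12 and 0.29 ± 0.08, the loading factors Tapbpl and Tapbp by 0.37 ± 0.07 and 0.29 ± 0.07, Tap2 by 0.25 ± 0.06 and H2-Q4 by 0.24 ± 0.07. The heavy chains H2-K1 and H2-D1 had differences of -0.09 ± 0.06 and -0.08 ± 0.05, and the light chain B2m had -0.02 ± 0.05; none of these was called. TNFa against untreated cells raised 16 of the 17. The count of members called lower was 3 without TNFa+BMP4 replicate 1 and 3 without TNFa replicate 1. Only Tap1 and Tapbpl of the 7 kept their call in all 6 fits that left out a library. H2-Q4 was not called in the authors' deposited table (authors' deposited adjusted p = 0.189).

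Pattern receptors, their adaptors and complement genes fell in 8 of 22 cases and rose in 1. C3, the central complement protein (NM_009778, mm10 chromosome 17, 57203967 to 57228136), had levels of 9.27, 8.11 and 8.07 in TNFa+BMP4 libraries, against 10.20, 8.96 and 8.87 in TNFa libraries. Within each batch the TNFa+BMP4 libraries lay below the TNFa libraries, by 0.93 in batch 1 and 0.82 in batch 2, while the pooled groups overlapped. The difference was -0.86 ± 0.15 (limma adjusted p = 0.000577). The sensors of viral RNA Ifih1 and Ddx58 fell by 0.55 ± 0.09 and 0.37 ± 0.06, the adaptor kinase Irak2 by 0.46 ± 0.08 and the complement protease C1ra by 0.35 ± 0.08. Tlr3, Nod1 and the Nod adaptor Ripk2 fell by 0.29 ± 0.09, 0.26 ± 0.07 and 0.24 ± 0.07, and each stayed called in 1 of the 6 leave-one-library-out fits. Their largest adjusted p were 0.392 without TNFa+BMP4 replicate 1 for Tlr3, and 0.153 and 0.271 without TNFa replicate 1 for Nod1 and Ripk2. Tlr3 was also not called in the authors' deposited table (authors' deposited adjusted p = 0.118). Tlr2, the receptor for bacterial lipoproteins, moved the other way. It had levels of 11.64, 10.49 and 10.63 in TNFa+BMP4 libraries, against 10.90, 10.15 and 10.26 in TNFa libraries. Within each batch the TNFa+BMP4 libraries were the higher ones, and the difference was 0.49 ± 0.11 (limma adjusted p = 0.0054; 0.0705 without TNFa+BMP4 replicate 1). Myd88, the adaptor of most Toll-like receptors, had a difference of 0.03 ± 0.10, and Nod2, which TNFa raised by 1.83 over untreated cells, one of 0.00 ± 0.11; neither was called. The count of members called lower was 5 without TNFa+BMP4 replicate 2 and 5 without TNFa replicate 1.

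Of 20 tested NF-kB subunits and inhibitors 3 fell and 1 rose, where 6.2% of all tested genes fell and 5.47% rose. The other 16 were not called. The median difference of the list was -0.06, and 15 of the 20 were raised by TNFa over untreated cells. Nfkbie, which encodes the inhibitor IkB-epsilon (NM_008690, mm10 chromosome 17, 45555700 to 45563168), had levels of 11.79, 11.19 and 11.14 in TNFa+BMP4 libraries, against 12.15, 11.47 and 11.48 in TNFa libraries. It was lower within each batch, with a difference of -0.33 ± 0.05 (limma adjusted p = 0.000221). The deubiquitinase Cyld fell by 0.32 ± 0.05. Tnip1, an A20-binding protein, fell by 0.18 ± 0.05, but stayed called in 1 of the 6 leave-one-library-out fits, with the largest adjusted p, 0.156, without TNFa+BMP4 replicate 2. Map3k14, the kinase of the non-canonical pathway, rose by 0.28 ± 0.07 (adjusted p = 0.164 without TNFa+BMP4 replicate 1). Rela had levels of 11.34, 11.58 and 11.57 in TNFa+BMP4 libraries, against 11.40, 11.61 and 11.63 in TNFa libraries, and the groups overlapped. Relb (-0.11 ± 0.08), Nfkb1 (0.10 ± 0.08), Nfkb2 (-0.07 ± 0.05), Bcl3 (0.09 ± 0.10) and Tnfaip3, which encodes the inhibitor A20 (-0.05 ± 0.11), were not called either. Nfkbia, which encodes the inhibitor IkB-alpha, had levels of 11.62, 11.18 and 11.26 in TNFa+BMP4 libraries, against 11.26, 11.00 and 11.02 in TNFa libraries. It was higher within each batch, yet the limma difference of 0.26 ± 0.13 was not called (adjusted p = 0.216). In the authors' deposited table it was called higher, with a fold change of 0.285 (authors' deposited adjusted p = 4.5e-05). That table called 2 members of this list higher and 4 lower, where it called 5.47% of all tested genes higher and 5.07% lower.

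Chemokines moved both ways. Of 23 listed genes 14 were below the minimum, among them Cxcl1, Cxcl2 and Cxcl5, and of the 9 tested 2 rose and 1 fell. Ccl2, the main monocyte attractant, had levels of 11.51, 9.93 and 9.97 in TNFa+BMP4 libraries, against 11.01, 9.78 and 9.71 in TNFa libraries. Within each batch it was higher with BMP4, by 0.50 in batch 1 and 0.21 in batch 2, but the limma difference of 0.31 ± 0.21 was not called (adjusted p = 0.40). The authors' deposited table has 0.337 for it (authors' deposited adjusted p = 0.000174). Its relative Ccl7 rose by 0.56 ± 0.18 and stayed called in 2 of the 6 leave-one-library-out fits (largest adjusted p = 0.404, without TNFa+BMP4 replicate 1). Cxcl12, which retains blood stem cells in marrow, rose by 0.38 ± 0.09. The interferon-inducible Cxcl10 fell by 0.29 ± 0.09 (adjusted p = 0.179 without TNFa replicate 1). The authors' deposited table does not call it (authors' deposited adjusted p = 0.136). The T cell attractant Ccl5 had levels of 8.28, 5.74 and 6.19 in TNFa+BMP4 libraries, against 9.32, 6.63 and 6.63 in TNFa libraries. It was lower within each batch, and with a difference of -0.79 ± 0.38 was not called (limma adjusted p = 0.198), whereas the authors' deposited table calls it lower with a fold change of -1.09 (authors' deposited adjusted p = 1.02e-10). Cx3cl1 had a difference of -0.29 ± 0.12 that limma did not call (adjusted p = 0.135) and an authors' deposited fold change of -0.308 (authors' deposited adjusted p = 1.05e-06).

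Of 9 tested cytokines, osteoclast regulators and prostaglandin enzymes 3 rose and 0 fell, none of the 3 a cytokine, and 13 others, Tnf, Il1b and Il6 among them, were below the minimum. Ptgs2, the inducible cyclooxygenase (NM_011198, mm10 chromosome 1, 150100031 to 150108234), had levels of 9.33, 9.49 and 9.50 in TNFa+BMP4 libraries, against 8.33, 9.05 and 9.01 in TNFa libraries. The groups did not overlap, and the difference was 0.65 ± 0.09 (limma adjusted p = 7.4e-05). Tnfrsf11b, the decoy receptor osteoprotegerin that restrains osteoclasts, rose by 0.61 ± 0.08. Ptges, which makes prostaglandin E, rose by 0.35 ± 0.08 (adjusted p = 0.0582 without TNFa replicate 1). Csf1, the macrophage growth factor, had a difference of 0.10 ± 0.07 and Lif one of -0.13 ± 0.10, and neither was called. Of 21 tested interleukin and interferon receptors and SOCS proteins 3 fell and 0 rose: Il15ra by 0.39 ± 0.09, Il6ra by 0.37 ± 0.08 and Lifr by 0.30 ± 0.07 (for Lifr adjusted p = 0.0735 without TNFa+BMP4 replicate 1). Il6st, the shared signalling chain of the last pair, had -0.08 ± 0.05 and was not called.

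Among adhesion and matrix remodelling genes 3 of 17 rose and 3 fell. Among the rises, the protease inhibitors Timp1 and Timp3 rose by 0.77 ± 0.10 and 0.54 ± 0.10. The aggrecan-cleaving proteases Adamts1 and Adamts5 fell by 0.56 ± 0.09 and 0.35 ± 0.07, and the plasminogen activator Plau by 0.46 ± 0.09. Vcam1, the leukocyte adhesion molecule, had levels of 12.33, 11.74 and 11.78 in TNFa+BMP4 libraries, against 12.41, 11.85 and 11.83 in TNFa libraries. The difference of -0.08 ± 0.05 was not called (limma adjusted p = 0.353). Icam1 had a difference of -0.13 ± 0.10 and was not called (limma adjusted p = 0.443). Mmp9 had -0.41 ± 0.14 and just missed the threshold (limma adjusted p = 0.0579).

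**Figure D3:**
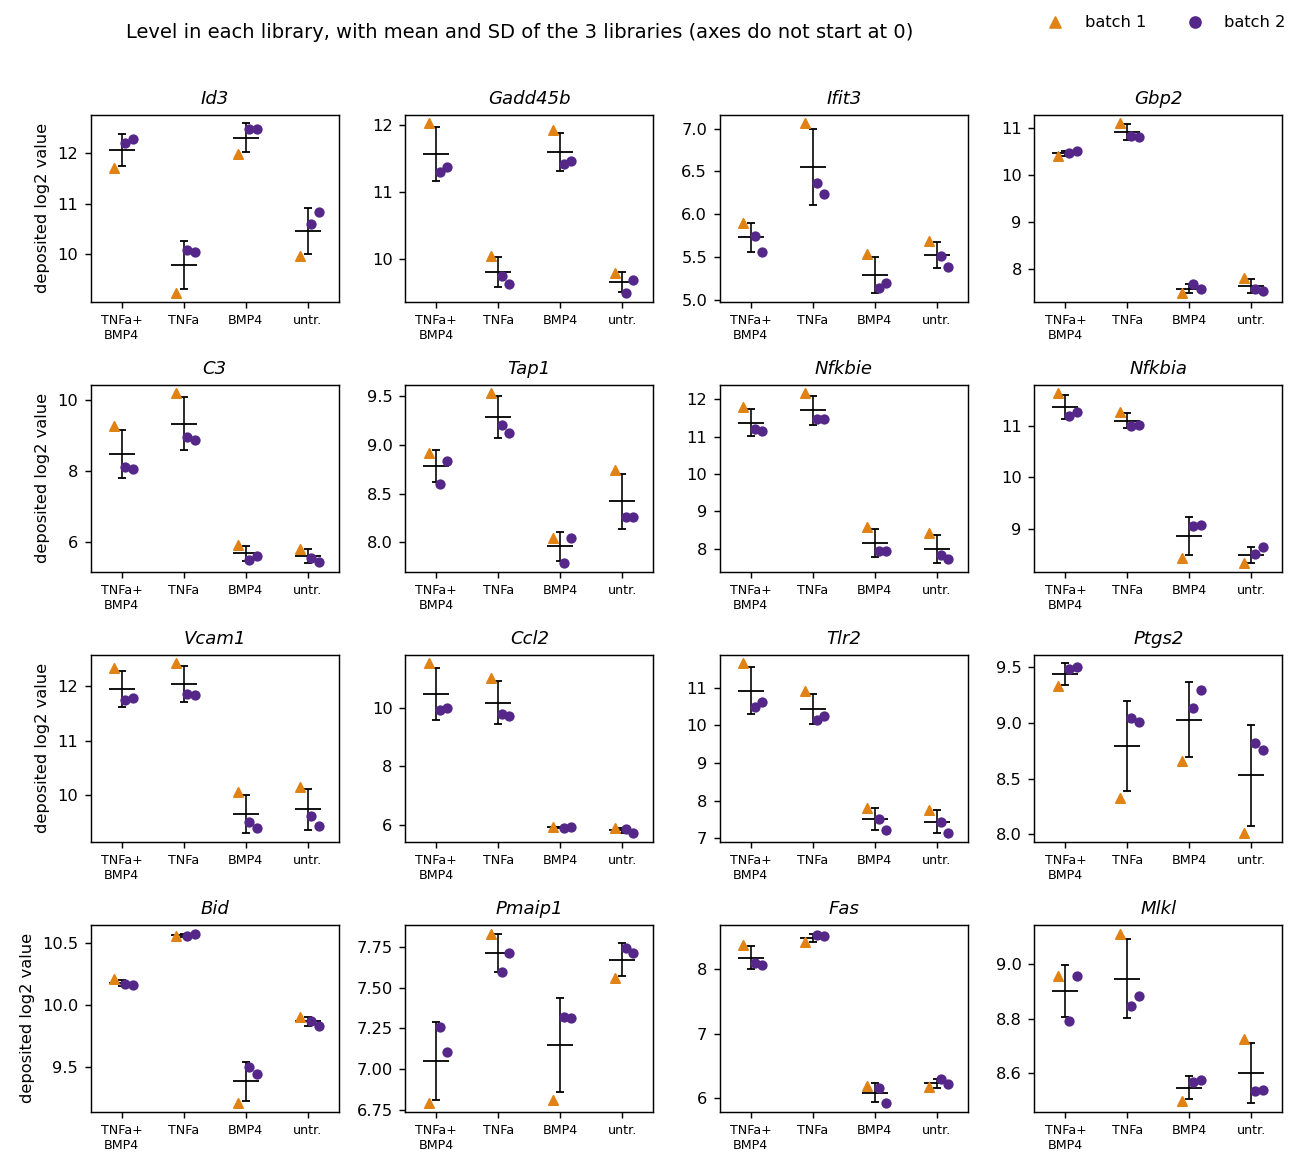
Deposited log2 level (y axes, which do not start at 0) of 16 genes in each of the 12 libraries, by group, with triangles for batch 1, circles for batch 2, and bars for the mean and SD of 3 libraries. Ifit3, Gbp2, Tap1, Bid and Pmaip1 have no overlap between TNFa+BMP4 and TNFa libraries, whereas Nfkbia, Ccl2, Vcam1 and Mlkl overlap.

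Death receptors and their signalling complex were called in 4 of 23 cases, where 11.7% of all tested genes were called. Fas, a death receptor that TNFa raised by 2.26 ± 0.09 over untreated cells (NM_007987, mm10 chromosome 19, 34290659 to 34327770), had levels of 8.39, 8.10 and 8.07 in TNFa+BMP4 libraries, against 8.42, 8.54 and 8.52 in TNFa libraries. The groups did not overlap, but the fall differed in size between batches: the difference was -0.03 in batch 1 and -0.45 in batch 2, and -0.31 ± 0.09 in the fit (limma adjusted p = 0.0352). It stayed called in 2 of the 6 leave-one-library-out fits, with the largest adjusted p, 0.14, without TNFa+BMP4 replicate 3. Tnfrsf10b, the mouse receptor for TRAIL, fell by 0.19 ± 0.06 (adjusted p = 0.144 without TNFa replicate 1). It was not called in the authors' deposited table (authors' deposited adjusted p = 0.0761). The TWEAK receptor Tnfrsf12a had levels of 11.16, 10.98 and 10.96 in TNFa+BMP4 libraries, against 10.56, 10.60 and 10.57 in TNFa libraries, and rose by 0.46 ± 0.07. Tnfrsf1b, the second TNF receptor, rose by 0.30 ± 0.09 (adjusted p = 0.181 without TNFa+BMP4 replicate 1). The core of the complex was not called: Tnfrsf1a had a difference of 0.05 ± 0.06, Tradd 0.09 ± 0.07, Fadd 0.05 ± 0.09, Ripk1 0.10 ± 0.06 and Casp8 -0.17 ± 0.07.

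Of 11 tested pro-apoptotic members of the BCL2 family 4 fell and 0 rose. Of 6 tested genes on the anti-apoptotic list, which holds BCL2 members and BAG co-chaperones, 2 rose and 0 fell. Bid, which Casp8 cleaves to engage mitochondria (NM_007544, mm10 chromosome 6, 120893119 to 120916824), had levels of 10.21, 10.17 and 10.17 in TNFa+BMP4 libraries, against 10.56, 10.55 and 10.58 in TNFa libraries. The groups were well apart in both batches, with a difference of -0.38 ± 0.06 (limma adjusted p = 0.000298). Pmaip1, which encodes the BH3-only protein Noxa, had levels of 6.79, 7.26 and 7.10 in TNFa+BMP4 libraries, against 7.83, 7.60 and 7.71 in TNFa libraries. It fell by 0.66 ± 0.11 without overlap (limma adjusted p = 0.000248). Bbc3, which encodes Puma, and Bok fell by 0.36 ± 0.09 and 0.31 ± 0.08, and stayed called in 3 and 2 of the 6 leave-one-library-out fits. Their largest adjusted p, both without TNFa+BMP4 replicate 1, were 0.134 and 0.148. The count of pro-apoptotic members called lower was 2 without TNFa+BMP4 replicate 1, without TNFa replicate 1 and without TNFa replicate 2. The pore formers Bax (0.08 ± 0.06) and Bak1 (0.04 ± 0.06) and the BH3-only Bcl2l11 (-0.09 ± 0.10) were not called. Bag3, a co-chaperone that restrains apoptosis, rose by 0.32 ± 0.07. Mcl1 rose by 0.16 ± 0.05, but stayed called in 0 of the 6 leave-one-library-out fits (largest adjusted p = 0.138, without TNFa+BMP4 replicate 1). Bcl2l1, which encodes Bcl-xL, had 0.21 ± 0.07 and missed the threshold (limma adjusted p = 0.0659), and Bcl2 had 0.00 ± 0.09.

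Caspases and other genes of apoptosis were mostly not called. Of 18 tested caspases and apoptosis genes 2 fell and 1 rose, where 6.2% of all tested genes fell and 5.47% rose. Apaf1, which forms the apoptosome, fell by 0.29 ± 0.06, Parp1 fell by 0.19 ± 0.05 and Cycs, which encodes cytochrome c, rose by 0.21 ± 0.07. The last pair stayed called in 2 and 1 of the 6 leave-one-library-out fits, and without TNFa+BMP4 replicate 1 their adjusted p were 0.237 and 0.347. The initiator caspase Casp9 (-0.12 ± 0.08) and Trp53 (-0.06 ± 0.05) were not called. Of 9 tested necroptosis and pyroptosis genes 1 fell, the endoplasmic reticulum caspase Casp12 (-0.31 ± 0.09; adjusted p = 0.135 without TNFa replicate 1). Mlkl, the necroptosis executioner, had levels of 8.96, 8.79 and 8.96 in TNFa+BMP4 libraries, against 9.11, 8.85 and 8.88 in TNFa libraries. The groups overlapped, and the difference was -0.04 ± 0.07 (limma adjusted p = 0.762). Ripk3 (-0.06 ± 0.08), the inflammatory caspase Casp4 (-0.20 ± 0.09) and the pore former Gsdmd (-0.20 ± 0.09) were not called.

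Among IAP, TRAF and other survival genes 3 of 20 rose and 1 fell. Gadd45b, a stress sensor that restrains JNK signalling (NM_008655, mm10 chromosome 10, 80930091 to 80932204), had levels of 12.02, 11.30 and 11.38 in TNFa+BMP4 libraries, against 10.06, 9.75 and 9.63 in TNFa libraries. It was the largest rise of the 14 lists, at 1.75 ± 0.07 (limma adjusted p = 1.05e-12). Its relative Gadd45g rose by 0.97 ± 0.09 and Ier3 by 0.52 ± 0.10. Traf5 fell by 0.37 ± 0.08 (adjusted p = 0.0795 without TNFa replicate 1). The NF-kB-driven inhibitors of apoptosis Birc3 and Birc2 had differences of -0.12 ± 0.12 and -0.07 ± 0.07, and the Casp8 inhibitor Cflar had -0.02 ± 0.06; none of these was called. Over all 6 death lists the count of genes called lower, 10 in the fit to all libraries, was 5 without TNFa+BMP4 replicate 1, 6 without TNFa+BMP4 replicate 3, 4 without TNFa replicate 1 and 5 without TNFa replicate 2. Bid, Pmaip1, Apaf1, Tnfrsf12a, Bag3, Gadd45b, Gadd45g and Ier3 kept their call in all 6.

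The same genes can be read in cells without TNFa, from the difference between BMP4 and untreated libraries. It has no library in common with the difference between TNFa+BMP4 and TNFa. Both come from the same fit, with a shared batch term and a shared estimate of the spread, so their calls are not independent. Over the 11765 tested genes the effect of BMP4 with TNFa and its effect without TNFa had a Pearson r of 0.788, a description across genes of the same 2 batches. Against untreated cells 1438 genes (12.2%) were called for BMP4, 794 higher (6.75%) and 644 lower (5.47%). Higher in both settings were 424 genes, which are 65.9% of the genes higher with TNFa and 53.4% of those higher without. Lower in both were 374 genes, 51.2% of those lower with TNFa and 58.1% of those lower without, and 2 genes were called in opposite directions. Of the genes called between TNFa+BMP4 and TNFa, 96.3% had the same sign between BMP4 and untreated cells. For 3 death genes both values, read side by side, were as follows: Bid had -0.38 ± 0.06 with TNFa and -0.48 ± 0.06 without, Pmaip1 -0.66 ± 0.11 with and -0.52 ± 0.11 without, and Gadd45b 1.75 ± 0.07 with and 1.93 ± 0.07 without.

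Fewer interferon genes were called for BMP4 in cells without TNFa. There BMP4 lowered 4 of the 29 members and raised 0, with a median difference of -0.06 for the list. The median of the difference between both effects was -0.20 for the list and -0.0044 for all tested genes, and it was negative for 24 of the 29 members. Of the 29 interactions 0 were called by limma after adjustment and 14 had an unadjusted p under 0.05, as did 560 of all 11765 tested genes (4.76%). The smallest adjusted p in the list was 0.325, for Ifit3, which had -0.82 ± 0.10 with TNFa and -0.23 ± 0.10 without. C3 had -0.86 ± 0.15 with TNFa and 0.08 ± 0.15 without, and its interaction of -0.93 ± 0.21 was not called (limma adjusted p = 0.304). Both genes started lower without TNFa: the mean level of Ifit3 was 5.53 in untreated and 6.55 in TNFa libraries. That of C3 was 5.60 in untreated and 9.34 in TNFa libraries. The deposited scale compresses weak genes, and the part of starting level in the smaller differences without TNFa was not tested. In limma's fit of the interaction 2 of 11765 genes (0.017%) were called, 1 higher (0.0085%) and 1 lower (0.0085%). Nfkbie was 1 of them. Its levels were 8.58, 7.94 and 7.94 in BMP4 libraries, against 8.42, 7.83 and 7.72 in untreated libraries, a difference of 0.16 ± 0.05. BMP4 thus went with a lower Nfkbie level in the presence of TNFa and a higher one in its absence, with an interaction of -0.49 ± 0.07 (limma adjusted p = 0.02). The other was Pdgfb, a growth factor chain, which had 0.37 ± 0.12 with TNFa and -0.64 ± 0.12 without, an interaction of 1.02 ± 0.17 (limma adjusted p = 0.0382). Its rise with TNFa was 0.78 in batch 1 and 0.17 in batch 2 and stayed called in 1 of the 6 leave-one-library-out fits (largest adjusted p = 0.449, without TNFa+BMP4 replicate 1). That rise was also not called with the replicate block or in batch 2 alone. The number of called interactions was 0 without TNFa+BMP4 replicate 2 and 0 without each TNFa replicate in turn, and 15 in batch 2 alone. The plot of both effects of BMP4 shows where these genes lie.

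**Figure D4:**
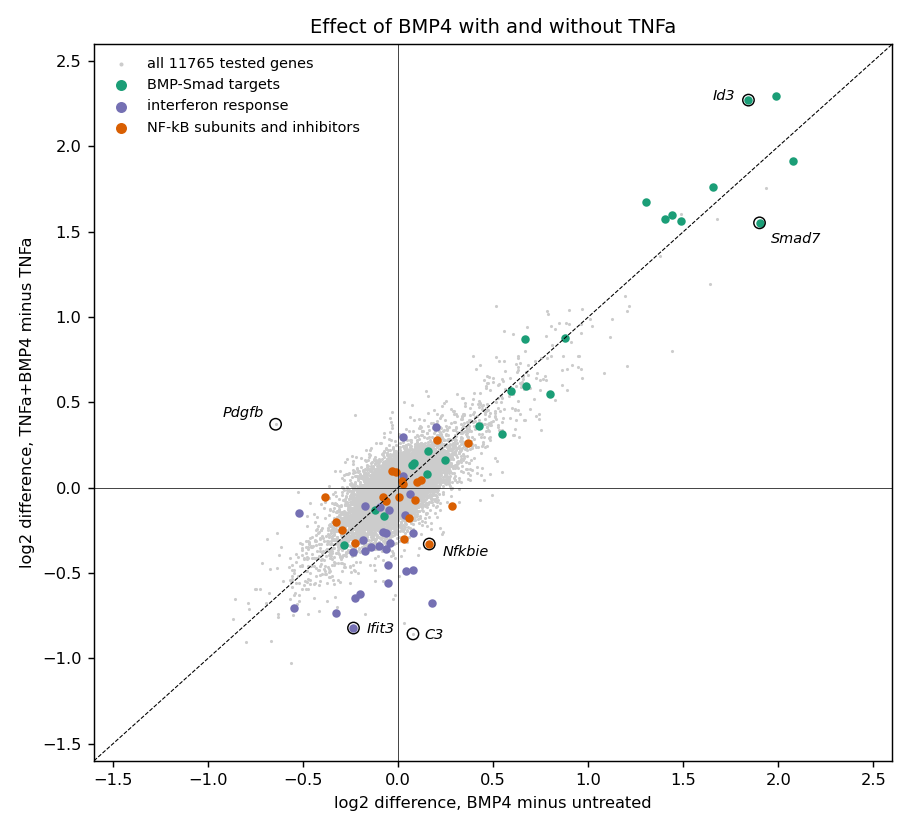
Effect of BMP4 in cells with TNFa (y axis, TNFa+BMP4 minus TNFa) and in cells without it (x axis, BMP4 minus untreated), both in log2 units, with 1 point for each of 11765 genes and 3 lists in colour. BMP-Smad targets lie along the dashed line of equal effects, most interferon genes lie below it, and Nfkbie and Pdgfb, the 2 genes with a called interaction, are circled.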

How the data were processed

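RNA of 12 libraries in 4 groups of 3 was used as deposited. The log2 values per gene were deposited by the authors with no statement of the transformation, and weak genes are compressed on this scale. Per the file headers, HOMER counted reads in exons with 1 transcript per gene. Per the submitters' processing notes, Trim Galore, HISAT2, HOMER and the mm10 build were used, with versions not given in the sources used here, as are strand and the handling of reads that map to several places. The authors deposited fold changes and adjusted p-values for the same pair of groups, which are printed only where named as theirs. Batch follows the labels; the file's own batch numbers are swapped but split the libraries alike.

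Of 25124 entries 17701 held a value other than 0 in some library, and the 11765 with a mean log2 level of at least 4 were tested. limma 3.58.1 in R 4.3.3 was fitted to all 12 libraries with group and batch, leaving 7 residual degrees of freedom, with a variance trend, and Benjamini-Hochberg adjusted p-values under 0.05 were called. The script was tested on simulated data. The contrasts were TNFa+BMP4 against TNFa, BMP4, TNFa and TNFa+BMP4 each against untreated, and the interaction. Genes named are the 10 largest rises and falls with 1 direction across both batches, members of the gene lists, a fixed set of marker genes, and the genes with a called interaction. The members and lists were chosen with earlier results of these data known. Replicates 2 and 3 of different groups did not pair within batch 2, with correlations of 0.020 to 0.164 between groups. Depth of 13.7 M to 20.6 M tags limits weak genes most. Promoters came from RefSeq by gene symbol. Values of some list members are not reported here, although these members stay in the counts.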

Additional observations from a re-analysis of the deposited data

Results flagged for a closer look

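The effect of BMP4 differed between cells with and without TNFa for 2 genes by the test of that difference across all genes. For Nfkbie, which encodes an inhibitor of NF-kB, TNFa+BMP4 against TNFa gave -0.33 ± 0.05 and BMP4 against untreated gave 0.16 ± 0.05, a difference of -0.49 ± 0.07 (limma adjusted p = 0.02). It was lower with BMP4 in all 3 TNFa+BMP4 libraries when each was set against the TNFa libraries of its own batch. For Pdgfb, which encodes a platelet-derived growth factor chain, the levels were 7.92, 7.93 and 7.77 in TNFa+BMP4 libraries, against 7.14, 7.68 and 7.70 in TNFa libraries. They were 5.85, 6.61 and 6.65 in BMP4 libraries, against 6.66, 7.14 and 7.24 in untreated libraries, so that the difference of the effects was 1.02 ± 0.17 (limma adjusted p = 0.0382). The rise of Pdgfb with TNFa was 0.78 in batch 1 and 0.17 in batch 2. Both genes were picked by this test, so their levels add no separate evidence. The number of called interactions was 0 without TNFa+BMP4 replicate 2 and 0 without each TNFa replicate in turn.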

How the results depend on the processing

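Of the 94 named genes called between TNFa+BMP4 and TNFa, 57 kept their call in all 6 fits that left out a library and 0 changed sign in any alternative. Over all genes, 643 were higher and 730 lower, against 66 and 39 with no batch term, 427 and 479 with no minimum level, and 1015 higher with only the 6 libraries of both groups. Leaving out a library gave 379 to 496 higher and 373 to 594 lower. The counts fell by more than 1.5 times without TNFa+BMP4 replicate 1 (402 higher, 398 lower) and without TNFa replicate 1 (379 higher, 373 lower), without TNFa replicate 2 for rises (422) and without TNFa replicate 3 for falls (481). The 2 called interactions were 0 with no batch term, 15 in batch 2 alone, 1 after quantile normalization, 0 with no minimum level and 0 to 2 with a library left out. The cause of these shifts was not tested.

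With the replicate number as a replicate block in place of batch, 600 genes were higher and 679 lower, and 1 interaction was called. The numbers did not pair the libraries: the correlation between TNFa+BMP4 and TNFa deviations within batch 2 was 0.021.

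Of the 29 interferon genes, 13 were called lower at a mean level of at least 6, 15 with no minimum level and 2 with no batch term. Over the 14 lists, 47 members were called between BMP4 and untreated cells and 145 between TNFa and untreated cells, against 3 and 83 with no batch term. Quantile normalization called 575 genes higher and 777 lower, and median centring 630 and 725. Both moved the median of all genes by less than 0.01, which follows from making the libraries alike and is no check.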

Other observations

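Parts of the BMP and TGF-beta pathway moved with BMP4 in TNFa-treated cells. Of 20 tested receptors, ligands and Smads 5 rose and 4 fell, where 5.47% of all tested genes rose and 6.2% fell. The median difference of the list was -0.01. Tgfb3, a TGF-beta ligand, rose by 0.95 and the BMP receptor Bmpr2 by 0.46, whereas the TGF-beta co-receptor Tgfbr3 fell by 0.47 and Smad3, which carries TGF-beta signals, fell by 0.39. Of 27 tested immediate-early genes and MAP kinase phosphatases 7 rose and 1 fell, against the same shares of all tested genes. Without TNFa+BMP4 replicate 1 the count of rises was 4, and the count of falls was 0 without TNFa+BMP4 replicate 3 and without each TNFa replicate in turn. The AP-1 subunit Junb rose by 1.20, the repressor Klf10 by 0.84, Fos by 0.57 and Fosl2 by 0.46.

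Of 8 tested osteoblast markers 2 rose, and of 6 tested chondrocyte markers 2 rose, where limma called 5.47% of all tested genes higher. Pth1r, the parathyroid hormone receptor, rose by 0.62 and Postn, a matrix protein, by 0.22, and the other 6 tested genes of the osteoblast list were not called. The count of called osteoblast genes was 1 without TNFa+BMP4 replicate 1 or 2 and without TNFa replicate 1 or 2. Runx2, the osteoblast transcription factor, was listed with the BMP-Smad targets and rose by 0.22 (limma adjusted p = 0.0366). Of 6 tested chondrocyte markers Col2a1 rose by 0.62 and Sox9 by 0.33, while Acan and Col9a1 were at 0. The count of chondrocyte markers called higher was 0 with no minimum level and 0 by the authors' deposited adjusted p. It was 1 without TNFa+BMP4 replicate 2 or 3 and without TNFa replicate 1 or 2. The summed level of the chondrocyte list was 51.4 to 51.8 in TNFa+BMP4 libraries and 50.3 to 50.9 in TNFa libraries.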
